A study of Capra hircus with 20 samples.

Results

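Growth hormone-releasing hormone (GHRH), somatostatin (SST), the somatostatin receptors SSTR1 to SSTR5 and the growth hormone receptor (GHR) were examined in the goat hypothalamus from birth to sexual maturity. The genes were chosen by name. Of the 8 named genes, 7 were matched to a gene of the goat ARS1.2 annotation, among 21071 genes with values, and SSTR4 was not analysed here. The tissue was the hypothalamus of 20 female Jining grey goats kept under the same management, an early-maturing breed. There were 5 goats at 1 day (D1), 5 at 60 days (M2), 5 at 120 days (M4) and 5 at 180 days (M6) after birth, with no treatment at any age, and each goat gave a single strand-specific library depleted of rRNA. The values are FPKM, fragment counts corrected for exon length and sequencing depth.

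GHRH is made by neurons of the arcuate nucleus and is carried to the pituitary, where it drives the release of growth hormone. SST, made by neurons of the periventricular nucleus among many other cells of the brain, inhibits that release through G protein-coupled receptors that lower cAMP and open potassium channels. GHR lets growth hormone act back on the brain and signals through JAK2 and STAT5.

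By the annotation of ARS1.2, GHRH (gene ID 102181610) lies on chromosome 13 from 65769415 to 65778809 and SST (102170466) on chromosome 1 from 79362883 to 79364074. SSTR1 (102172207) lies on chromosome 21 from 47759312 to 47764443, and SSTR2 (102191372) on chromosome 19 from 57339602 to 57346297. SSTR3 (102179457) lies on chromosome 5 from 74306045 to 74312963, and SSTR5 (102177021) on chromosome 25 from 793712 to 794859. GHR (100860790) is the longest of them, on chromosome 20 from 31878702 to 32175572. None of the 7 overlaps another annotated gene. FPKM values were read over the exons of each whole gene, so isoforms were not told apart.

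The libraries of one stage did not all carry the same markers of brain regions. The part of this in the levels of the genes below was not tested. The 16 genes of the hypothalamus list summed to between 2.74 FPKM in M4 replicate 1 and 920 FPKM in M6 replicate 5. This sum ranged from 5.86 to 540 FPKM among D1 libraries, from 11.3 to 44.8 among M2, from 2.74 to 496 among M4 and from 8.69 to 920 among M6 libraries. NKX2-1, a transcription factor of the ventral hypothalamus, was under 0.1 FPKM in 7 libraries and listed at 0 in 4 of them. M4 replicate 1 held 68.0 FPKM of SLC17A7 and 23.7 FPKM of NEUROD6, both genes of cortical excitatory neurons, with 0.0296 FPKM of NKX2-1 and OTP listed at 0. D1 replicate 4, M2 replicate 4 and M6 replicate 2 held 151, 57.2 and 56.4 FPKM of the striatal dopamine receptor gene DRD1, against at most 10.1 FPKM in any other library. The 12 genes of the cortex, striatum and thalamus list summed to between 34.8 and 472 FPKM among D1 libraries, 32.4 and 148 among M2, 27.8 and 180 among M4 and 25.8 and 209 among M6 libraries. The highest sum of M4 lay in replicate 2, not replicate 1, and NKX2-1 was listed at 0 there. M6 replicate 3 was low in neuronal genes, which summed to 169 FPKM there and to between 335 and 3312 FPKM in the others. In bulk tissue, fewer cells of a type and less RNA per cell cannot be told apart.

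**Figure D1:**
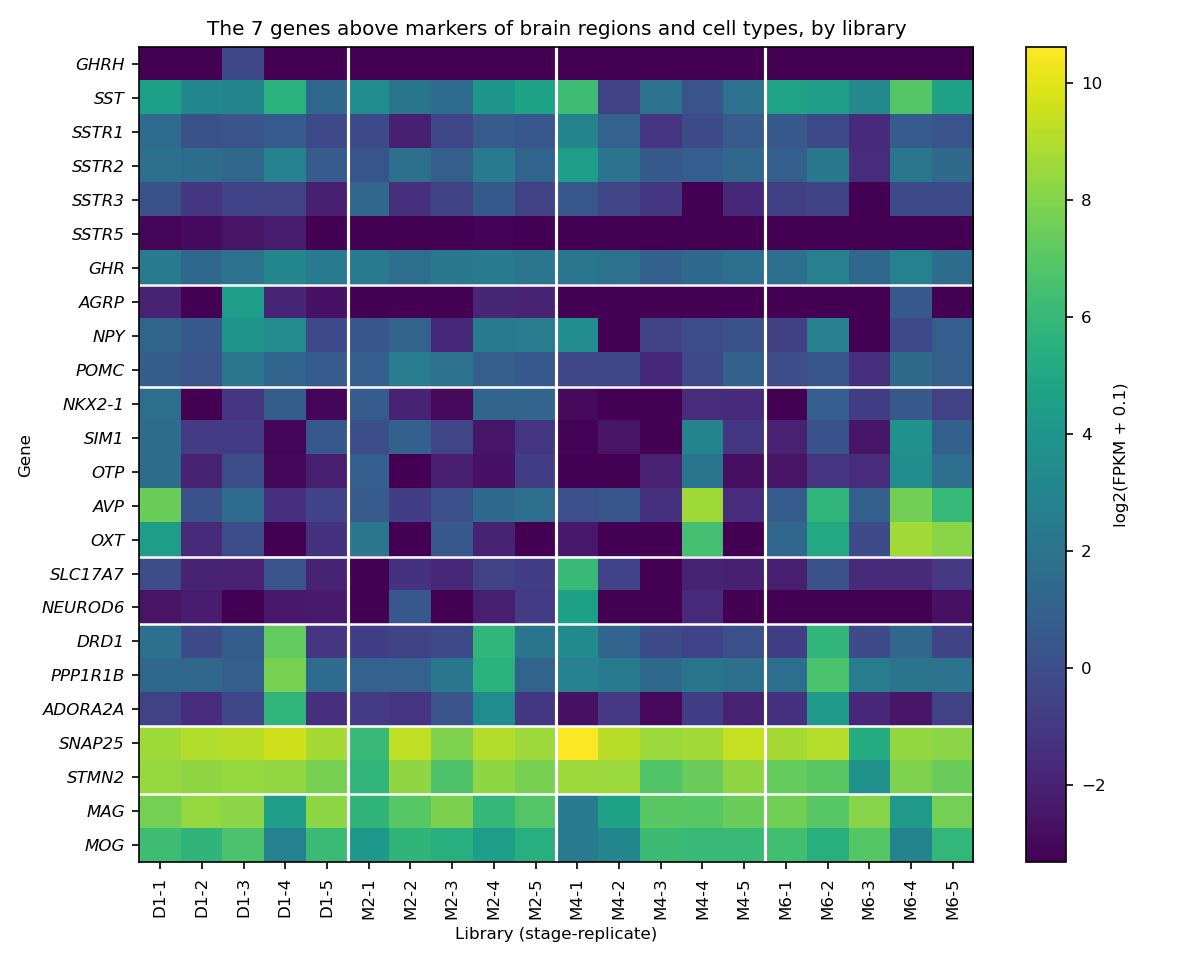
Heat map of log2(FPKM + 0.1) for the 7 genes (top block) and for arcuate (AGRP, NPY, POMC), other hypothalamic (NKX2-1 to OXT), cortical (SLC17A7, NEUROD6), striatal (DRD1 to ADORA2A), neuronal (SNAP25, STMN2) and oligodendrocyte (MAG, MOG) genes, with 1 column per library and white lines between stages and blocks. The cortical block is bright in M4-1, the striatal block in D1-4, M2-4 and M6-2, and GHRH is above 0 only in D1-3, where AGRP is also highest.

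GHRH, the releasing hormone, was listed above 0 in 1 of the 20 libraries. D1 replicate 3 held 0.710 FPKM, and the other 4 libraries of D1 and all 15 libraries of M2, M4 and M6 were listed at 0. Zeros among well-measured genes were rare, since of the 8058 genes whose median reached 5 FPKM only 8 were listed at 0 in some library, but GHRH is far below that level. The library with GHRH also held most of the AGRP of the series. AGRP, an appetite-driving peptide of arcuate neurons, was at 21.7 FPKM in D1 replicate 3, which is 91.3% of its sum over all libraries, and its next highest value was 1.36 FPKM in M6 replicate 4. NPY, made by the same arcuate neurons, was at 14.9 FPKM there, its highest value. It was also at 11.3 FPKM in M4 replicate 1 and 10.3 FPKM in D1 replicate 4, where GHRH was listed at 0. POMC, another arcuate gene, was at 4.38 FPKM in D1 replicate 3. Its highest value was 5.63 FPKM, in M2 replicate 2, where GHRH and AGRP were listed at 0. With GHRH included, 4 genes had over 80% of their summed FPKM in D1 replicate 3 at a level over 0.5 FPKM, and the other 3 were AGRP, PRR32 and LOC108635379. GHRH did not reach 0.1 FPKM in 5 libraries and was left out of the test between stages. In a fit without that filter, the difference of M2, M4 and M6 from D1 was -0.60 each on the log2(FPKM + 0.1) scale (adjusted p = 0.506 for M2, limma), which comes from the value of 1 goat.

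Genes that mark GHRH neurons were sparse in the same libraries. GSX1, a transcription factor needed for GHRH neurons, was listed at 0 in 14 libraries and reached 0.157 FPKM at most. HMX2 and HMX3, which act in the same lineage, reached 0.388 and 2.01 FPKM at most, the latter in M6 replicate 4, where GHRH was listed at 0. Of the 12 genes of this list, 10 were tested between stages, and 0 passed in any of the 6 comparisons (limma, with a Benjamini-Hochberg adjusted p under 0.05 and a change of 1 or more on the log2 scale in either direction), with at most 1 at an unadjusted p under 0.05. The smallest F-test p in the list was that of IKZF1, a lymphoid transcription factor also found in GHRH neurons, at 2.44 ± 0.802 FPKM (SD, n = 5) at D1 and 9.21 ± 5.13 FPKM at M2 (adjusted p = 0.462 over the 4 stages, limma). NTS, which encodes neurotensin, was at 89.7 ± 149 FPKM at D1 and 5.57 ± 2.73 FPKM at M4 (adjusted p = 0.543, limma).

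SST, the inhibitory ligand, was the highest of the 7 genes on average and also the most variable. At D1 the 5 libraries held 23.6, 8.80, 7.80, 47.3 and 2.49 FPKM of SST, in the order of replicates 1 to 5. At M2 they held 11.3, 4.23, 2.86, 16.0 and 27.0 FPKM. These ranges overlap over most of their width. At M4 the values were 79.2, 0.537, 3.68, 1.07 and 3.51 FPKM. At M6 they were 27.5, 22.5, 9.40, 123 and 25.1 FPKM. At M4 a single library lay above all others of that stage, and at M6 every library exceeded 4 of the 5 libraries of M4. Over all 20 libraries the highest value of SST was 229 times the lowest.

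**Figure D2:**
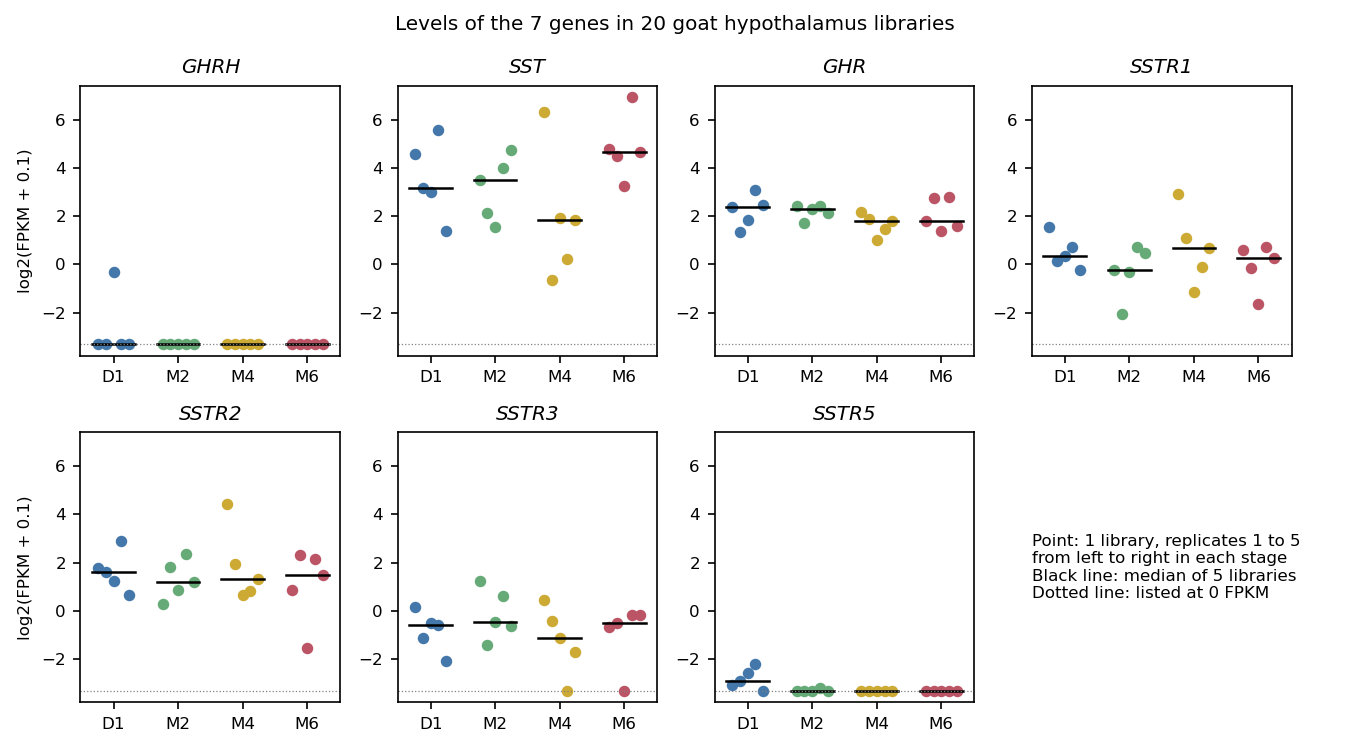
Values of the 7 genes in every library as log2(FPKM + 0.1), by stage (D1, M2, M4 and M6, 5 libraries each), with 1 point per library, a black line at the median and a dotted line where a gene is listed at 0. SST spreads from 0.537 to 123 FPKM, GHR from 1.90 to 8.47 FPKM, and GHRH has 1 point above the dotted line.

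The mean level of SST was highest at M6, with 41.5 ± 46.1 FPKM (SD, n = 5), beside 18.0 ± 18.1 for D1, 12.3 ± 9.80 for M2 and 17.6 ± 34.5 for M4. In M6 vs M4, the log2 fold change was 2.90 (95% confidence interval 0.75 to 5.04, limma), with an unadjusted p of 0.0107 and an adjusted p of 0.700 from limma, and the ranges of the 2 stages overlapped. It was the single difference among 30 (5 tested genes in 6 comparisons) with an unadjusted p under 0.05. For comparison, 6.87% of all genes tested had an unadjusted p under 0.05 in M6 vs M4. The other log2 fold changes of SST against D1 were -0.34 for M2, -1.60 for M4 and 1.30 for M6, and against M2 they were -1.26 for M4 and 1.63 for M6. Every interval of these 5 included 0. Without M4 replicate 1, the library with cortical genes, M4 was at -2.69 against D1 (adjusted p = 0.286, limma) and at -2.36 against M2 (adjusted p = 0.707, limma), and both intervals left out 0. In that fit, 1787 of the 16771 genes tested had an unadjusted p under 0.05 in M4 vs D1 and 1102 in M4 vs M2 (limma). The F test over the 4 stages gave an adjusted p of 0.504 for SST (limma).

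The size of the difference between M6 and M4 changed most with 1 library. The 79.2 FPKM of SST in M4 belonged to replicate 1, the library with cortical genes. The part of those genes in its level of SST was not tested. Without replicate 1, M4 was at 2.20 ± 1.63 FPKM (SD, n = 4), between 0.537 and 3.68 FPKM, and did not overlap with the 9.40 to 123 FPKM of M6. The log2 fold change was then 3.99 (95% confidence interval 2.25 to 5.73), with an unadjusted p of 0.000123 and an adjusted p of 0.688 from limma. Without that library, 0.727% of all genes tested were higher at M6 with no overlap, and 4.76% had an unadjusted p under 0.05. Leaving out the 4 libraries named above for SLC17A7 or DRD1 gave 4.07 (adjusted p = 0.494, limma). That fit kept M4 replicate 2, which had the highest sum of the cortex, striatum and thalamus list at M4 (180 FPKM). Its SST, 0.537 FPKM, was the lowest of the series. Keeping only libraries with at least 0.1 FPKM of NKX2-1, which left this library out, gave 3.80 (adjusted p = 1, limma). At M4 that fit kept only replicate 4 (0.243 FPKM of NKX2-1) and replicate 5 (0.222 FPKM). These choices of libraries were made after the values were seen, and the difference passed the adjusted threshold in none of them.

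Within M6 the highest level of SST, 123 FPKM in replicate 4, came with 13.6 FPKM of SIM1 and 11.1 FPKM of OTP, transcription factors of the paraventricular and anterior hypothalamus, and with 413 FPKM of oxytocin (OXT). These 3 values were the highest of the series. M4 replicate 4 was next in SIM1 (7.39 FPKM) and OTP (4.21 FPKM), but its SST was low, at 1.07 FPKM. The hypothalamus list had 14 genes tested, of which 2 were higher and 1 lower at M6 than at M4 with an unadjusted p under 0.05 and 0 passed the adjusted test. The median log2 fold change of the list was 1.67 in M6 vs M4, beside 0.04 for all genes tested. Across the 20 libraries, SST had r = 0.37 with the mean of this list on the log2 scale (adjusted p = 0.174, permutation test). Within stages r was -0.57 for M4 and 0.70 for M6. Without M4 replicate 1 it was 0.52 over all stages (adjusted p = 0.0782, permutation test). The part of these markers in the difference of SST between M6 and M4 was not tested.

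The genes whose ranks were most like those of SST over the 20 libraries were PENK (Spearman's rho = 0.79), which encodes enkephalin, ACTN2 (rho = 0.78) and DLX1 (rho = 0.77), a transcription factor of inhibitory neurons. PENK and ACTN2 were highest in D1 replicate 4, at 202 and 18.6 FPKM, and DLX1 in M6 replicate 4. These are the 3 highest among all genes tested, given as a description. Of 15 measured genes that mark SST neurons elsewhere in the brain, 0 passed in any comparison between stages, with at most 1 at an unadjusted p under 0.05. The smallest F-test p was that of NOS1, at 3.16 ± 1.85 FPKM at M2 and 0.872 ± 0.468 FPKM at M4 (SD, n = 5 each, adjusted p = 0.430, limma). SLC32A1, the vesicular GABA transporter, was at 8.65 ± 3.10 FPKM at D1 and 3.27 ± 2.24 FPKM at M4 (adjusted p = 0.573, limma). The paralogue CORT was not analysed here.

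Of the somatostatin receptors, SSTR2 was the highest in 19 of 20 libraries. It held 61.2% ± 13.2 (SD, n = 20) of the summed FPKM of the 4 measured receptors. SSTR1 held 26.1% ± 10.4, SSTR3 held 12.6% ± 11.5 and SSTR5 held 0.202% ± 0.466. The exception was M2 replicate 1, where SSTR3 held 55.1% and SSTR2 26.7%. The mean share of SSTR2 was between 58.0% at M2 and 64.5% at M4. The summed receptor level ranged from 0.462 FPKM in M6 replicate 3 to 30.2 FPKM in M4 replicate 1.

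**Figure D3:**
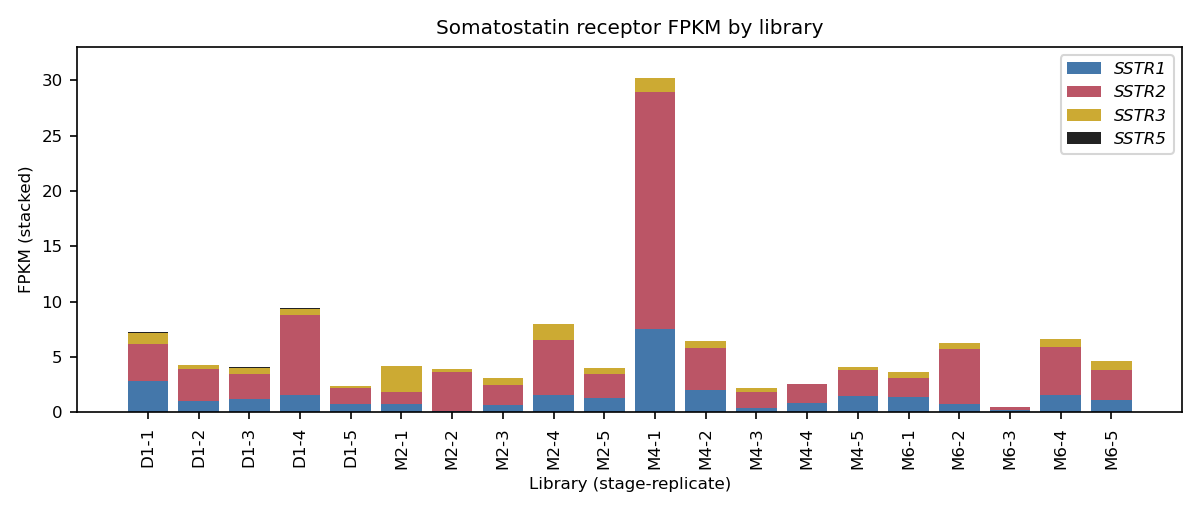
Stacked bars of the FPKM of SSTR1, SSTR2, SSTR3 and SSTR5 in each of the 20 libraries, from 0. SSTR2 is the tallest segment in all libraries but M2-1, the bar of M4-1 reaches 30.2 FPKM, and that of M6-3 reaches 0.462 FPKM.

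SSTR2, a receptor that also mediates the action of SST on growth hormone cells of the pituitary, was at 3.35, 2.93, 2.28, 7.25 and 1.49 FPKM in D1 replicates 1 to 5. At M2 the values were 1.11, 3.47, 1.74, 5.03 and 2.16 FPKM. The highest library of both stages was replicate 4, which had the most striatal genes of its stage. At M4 the values of SSTR2 were 21.5, 3.78, 1.46, 1.69 and 2.36 FPKM. At M6 they were 1.73, 4.90, 0.243, 4.31 and 2.71 FPKM. The M4 library with cortical genes was far above the next of its stage, and the library low in neuronal genes was the lowest of the series. With that M4 library, the mean of M4 was 6.15 ± 8.61 FPKM (SD, n = 5), and without it 2.33 ± 1.04 FPKM (n = 4). The 6 log2 fold changes of SSTR2 between stages lay between -0.78 (M6 vs M4) and 0.53 (M4 vs M2), each with a 95% interval reaching 1.49 to either side.

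SSTR1 was lower than SSTR2 in every library. It was at 2.83, 0.988, 1.16, 1.53 and 0.741 FPKM at D1 and at 0.759, 0.138, 0.695, 1.52 and 1.28 FPKM at M2. At M4 it was at 7.51, 2.01, 0.349, 0.837 and 1.49 FPKM, and at M6 at 1.41, 0.790, 0.220, 1.57 and 1.11 FPKM. The highest value again belonged to M4 replicate 1, and without it the mean of M4 was 1.17 ± 0.729 FPKM (SD, n = 4) in place of 2.44 ± 2.91 FPKM (n = 5). The log2 fold changes of SSTR1 lay between -0.78 (M2 vs D1) and 0.98 (M4 vs M2), with intervals of 1.36 to either side.

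SSTR3, a receptor known for its place in the primary cilia of neurons, was at 1.01, 0.362, 0.603, 0.561 and 0.136 FPKM at D1 and at 2.29, 0.278, 0.619, 1.43 and 0.556 FPKM at M2. At M4 it was at 1.25, 0.644, 0.357, 0 and 0.210 FPKM, and at M6 at 0.528, 0.613, 0, 0.780 and 0.780 FPKM. Its highest value lay in M2 replicate 1, not in M4 replicate 1, and it was listed at 0 in M4 replicate 4 and M6 replicate 3. The log2 fold changes lay between -1.10 (M4 vs M2) and 0.71 (M2 vs D1), with intervals of 1.47 to either side.

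SSTR5, the other receptor with a main role in the pituitary, was close to the lower end of the values. At D1 it was at 0.0193, 0.0327, 0.0687, 0.115 and 0 FPKM, and later it was above 0 only in M2 replicate 4, at 0.00943 FPKM. It was thus above 0 in 4 of 5 libraries at D1 and in 1 of 15 libraries after that. SSTR5 was left out of the test by the filter on low values. In a fit without that filter, its difference was -0.48 for M2 (adjusted p = 0.180, limma), -0.50 for M4 (adjusted p = 0.304, limma) and -0.50 for M6 (adjusted p = 0.442, limma), each against D1 and on the log2(FPKM + 0.1) scale. How many fragments stand behind these values is unknown, and no fold is given against groups listed at 0.

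GHR, the receptor of growth hormone, differed least between libraries. It was at 5.09, 2.47, 3.51, 8.47 and 5.34 FPKM at D1 and at 5.30, 3.21, 4.75, 5.19 and 4.31 FPKM at M2. At M4 it was at 4.39, 3.63, 1.90, 2.66 and 3.33 FPKM, and at M6 at 3.34, 6.60, 2.49, 6.81 and 2.92 FPKM. All values lay within a 4.47-fold range, and M4 replicate 1 did not stand out. The mean was lowest at M4, with 3.18 ± 0.951 FPKM (SD, n = 5), beside 4.98 ± 2.28 for D1, 4.55 ± 0.846 for M2 and 4.43 ± 2.10 for M6. The log2 fold changes of GHR lay between -0.57 (M4 vs D1) and 0.40 (M6 vs M4), with intervals of 0.70 to either side. Its smallest adjusted p was 0.643, in M4 vs M2 (limma).

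None of the 5 tested genes (SST, SSTR1, SSTR2, SSTR3 and GHR) was called in any of the 6 comparisons between stages or in the F test over the 4 stages. Few other genes were called either. The share of all tested genes called against D1 was 0.0537% for M4 and 0.00596% for M6, it was 0.00596% in the F test, and it was 0% in the other 4 comparisons. At an unadjusted p under 0.05, SST in M6 vs M4 was counted and none of the other 29 differences, while the share of all tested genes against D1 was 15.6% for M2, 8.71% for M4 and 7.41% for M6, and against M2 it was 8.68% for M4 and 6.14% for M6. The libraries of each pair of stages overlapped for all 5 genes, while the share of all genes tested without overlap was 3.82% in M2 vs D1, 1.93% for M4 and 2.84% for M6 against D1, 1.09% for M4 and 0.757% for M6 against M2, and 0.775% in M6 vs M4. For each of SSTR1, SSTR2 and SSTR3, the interval reached past 2 on the log2 scale in some comparison.

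**Figure D4:**
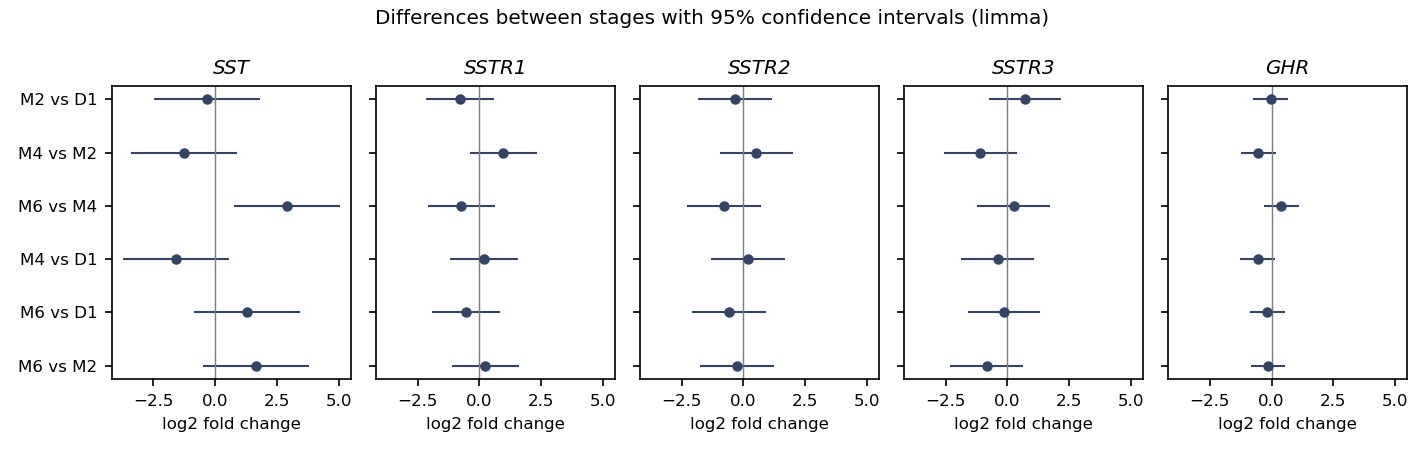
Log2 fold changes of the 5 tested genes in the 6 comparisons between stages (limma, the stage named first minus the other), as points with 95% confidence intervals. The interval of SST in M6 vs M4, from 0.75 to 5.04, is the single one that leaves out 0, and the intervals of GHR are the narrowest.

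The spread between goats of one stage was large for the ligand and the receptors of somatostatin. The SD within stages on the log2 scale was 1.82 for SST, which exceeded that of 98.6% of the genes tested. It was 1.24 for SSTR2 (above 90.1% of genes), 1.18 for SSTR3 (above 88.1%) and 1.10 for SSTR1 (above 85.4%). GHR had an SD of 0.54 and stood above 46.5%, beside a median of 0.57 over all genes tested.

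In the order of mean FPKM, which scales by gene length, SST (22.3) was followed by GHR (4.29), SSTR2 (3.77), SSTR1 (1.45), SSTR3 (0.650), GHRH (0.0355) and SSTR5 (0.0123). Neighbours were compared within libraries by sign-flip permutation tests of the log2 difference, adjusted over the 6 pairs. SST exceeded GHR in 16 of 20 libraries (adjusted p = 0.00652, permutation test). GHR exceeded SSTR2 in 16 of 20 as well (adjusted p = 0.0262, permutation test), a difference that did not pass when any of D1 replicate 5, M2 replicate 1 or M6 replicate 3 was left out, where it was 0.51, 0.49 and 0.45 on the log2 scale. SSTR2 exceeded SSTR1 in 20 of 20 libraries (adjusted p = 6e-05, permutation test), from a raw p of 1e-05 that is the smallest these permutations can give. SSTR1 exceeded SSTR3 in 17 of 20 (adjusted p = 0.00168, permutation test). GHRH was listed at 0 in 19 libraries and SSTR5 in 15, so the place of SSTR3 above them follows from those zeros, and the order of GHRH and SSTR5 was not told apart.

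SSTR1 and SSTR2 varied together across libraries. Over the 20 libraries, Pearson's r of log2(FPKM + 0.1) was 0.69 (adjusted p = 0.0169, permutation test, 10 pairs of genes) and Spearman's rho was 0.65 (adjusted p = 0.0251, permutation test). Without the 2 libraries farthest from the median of SSTR1, M2 replicate 2 and M4 replicate 1, r was 0.75. Within stages of 5 libraries each it was 0.55 for D1, -0.01 for M2, 0.95 for M4 and 0.81 for M6. Without M4 replicate 1 alone, r was 0.53 and no longer passed (adjusted p = 0.0619, permutation test). It did not pass without M2 replicate 3 and M6 replicate 3 either (r = 0.61, adjusted p = 0.0578, permutation test).

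The other 9 pairs had r between 0.39 and 0.54 and did not pass (adjusted p between 0.0543 and 0.0895, permutation test). When each value was centred on its stage mean and permuted within stages, r was between 0.44 and 0.72 over the 10 pairs and 8 passed. The exceptions were SST and GHR and SSTR3 and GHR (adjusted p = 0.0612 for both, permutation test). By Spearman's rho of the centred values, SST did not pass with SSTR2 (rho = 0.47, adjusted p = 0.0570, permutation test), SSTR3 or GHR. Nor did SSTR2 with SSTR3 (rho = 0.50, adjusted p = 0.0567), while SSTR3 with GHR passed (rho = 0.51, adjusted p = 0.0491, permutation tests). SSTR1 and SSTR3 had the highest centred r, 0.72, and SST was at 0.67 with SSTR1 and 0.67 with SSTR2. Without M4 replicate 1 these were 0.66, 0.48 and 0.46, and within the other 4 libraries of M4 the r of SST was -0.57 with SSTR1 and -0.64 with SSTR2. The genes of a library share its cell makeup and its scaling. The genes with the most similar ranks were RITA1 (rho = 0.96), CADM3 (rho = 0.94) and CLVS2 (rho = 0.93) for SSTR2 and KBTBD2, STAMBPL1 and PDPK1 (rho = 0.88, 0.88 and 0.86) for SSTR1. They were MIB2, SGSM2 and SRRM4 (rho = 0.86, 0.85 and 0.85) for SSTR3 and STK17B, EFNB2 and HEY1 (rho = 0.83, 0.80 and 0.79) for GHR. SRRM4 is a splicing factor of neurons, and EFNB2 and HEY1 are known from ephrin and Notch signalling, respectively.

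SSTR2 also varied with markers of cell types, the only one of the 5 tested genes to pass for Pearson's r among 15 relations computed after the values were seen. With the mean of 10 neuronal genes, SSTR2 had r = 0.75 (adjusted p = 0.00322, permutation test) and rho = 0.58 (adjusted p = 0.0400, permutation test), and r was 0.49 without M6 replicate 3 and M2 replicate 1. Leaving out M4 replicate 1 gave r = 0.75 (adjusted p = 0.0163, permutation test). With the mean of 9 oligodendrocyte genes, SSTR2 had r = -0.68 (adjusted p = 0.00322, permutation test) and rho = -0.60 (adjusted p = 0.0400, permutation test), and r was -0.51 without the 2 farthest libraries. Without M4 replicate 1 this r was -0.54 and did not pass (adjusted p = 0.0782, permutation test). For SST with the neuronal genes the values were lower (r = 0.05, rho = 0.09, adjusted p = 0.850 for r, permutation test). After centring on stage means, all 5 genes passed with the oligodendrocyte genes, at r = -0.62 for SST, -0.61 for SSTR1, -0.71 for SSTR2, -0.60 for SSTR3 and -0.74 for GHR (adjusted p between 0.0021 and 0.0385, permutation within stages). Before centring, the other 4 genes were at r between -0.55 and -0.38 and did not pass. By Spearman's rho, SSTR3 was at -0.58 and did pass (adjusted p = 0.0400, permutation test). GHR was at rho = -0.55 and did not (adjusted p = 0.0516, permutation test). Without M4 replicate 1 the centred r was between -0.73 (GHR) and -0.46 (SSTR1), with no test.

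**Figure D5:**
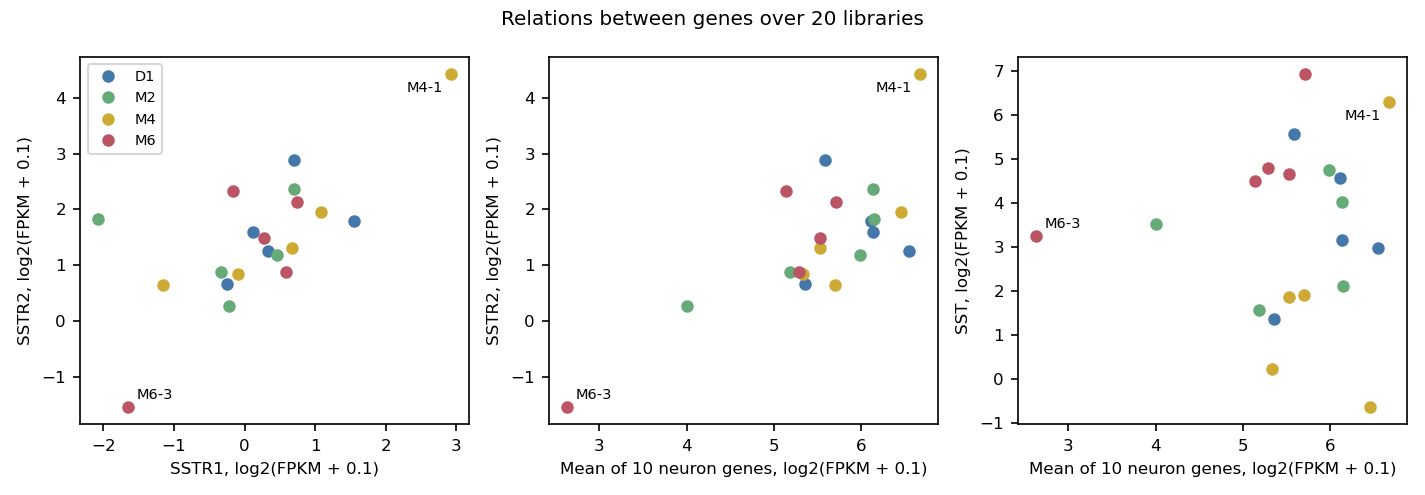
Scatter plots over the 20 libraries, coloured by stage, of SSTR2 against SSTR1 (left), SSTR2 against the mean of 10 neuronal genes (middle) and SST against the same mean (right), all as log2(FPKM + 0.1). M4-1 and M6-3 lie at opposite ends of the left and middle plots (r = 0.69 and 0.75), and r is 0.05 in the right plot.

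In the list of the growth hormone axis and of signalling by GHR, 18 of 22 measured genes were tested and 0 passed in any comparison. At an unadjusted p under 0.05 there were 3 in M2 vs D1 and 3 in M6 vs D1, beside 15.6% and 7.41% of all genes tested, and at most 2 in the others. JAK2, the kinase bound to GHR, was between 9.29 and 29.9 FPKM in all libraries, and STAT5B, its target, between 4.05 and 12.5 FPKM. The smallest F-test p of the list was that of IGFALS, which encodes a carrier of insulin-like growth factors. It was at 1.55 ± 0.841 FPKM at M6, beside 0.449 ± 0.151 for D1, 0.542 ± 0.235 for M2 and 0.471 ± 0.115 for M4 (SD, n = 5 each, adjusted p = 0.275, limma). IRS1, an adaptor of the insulin and IGF receptors, was at 7.47 ± 1.83 FPKM at D1 and 17.2 ± 6.34 FPKM at M2 (adjusted p = 0.438, limma). The growth hormone gene and the receptor genes GHRHR and GHSR were near the lower end. GH1 was above 0 in 1 library (M2 replicate 2, 0.605 FPKM). GHRHR reached 0.112 FPKM at most and was listed at 0 in 14 libraries. The ghrelin receptor gene GHSR reached 0.549 FPKM and was listed at 0 in 6.

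Downstream of the somatostatin receptors, 33 measured genes were all tested and 0 passed in any comparison. At an unadjusted p under 0.05, 4 were lower and 0 higher at M6 than at M4 (6.87% of all genes tested passed in either direction), 2 were higher at M4 than at M2 (8.68% of all genes) and at most 1 differed in the other comparisons. The median log2 fold change of this list in M6 vs M4 was -0.35, beside 0.04 for all genes tested. The list of 10 neuronal genes had a median of -0.96 in the same comparison, with 2 genes lower at an unadjusted p under 0.05, and M4 replicate 1 had the highest sum of the signalling list, 1324 FPKM. Their part in this difference was not tested. KCNJ9, a subunit of the potassium channels that these receptors open, was at 1.92 ± 0.904 FPKM at M4 and 0.914 ± 0.458 FPKM at M6 (SD, n = 5 each, adjusted p = 0.464 over the 4 stages, limma). ADCY8, an adenylyl cyclase, was at 5.87 ± 2.77 FPKM at M4 and 2.81 ± 0.973 FPKM at M6 (adjusted p = 0.522, limma). Of the 15 genes of prohormone processing, which cut and sort the precursors of both ligands, 0 passed in any comparison and at most 2 had an unadjusted p under 0.05. The 2 with the smallest F-test p were SCG3, at 61.4 ± 23.5 FPKM at M2 and 88.2 ± 20.9 FPKM at M4 (adjusted p = 0.517, limma), and CPE, at 379 ± 96.4 FPKM at D1 and 258 ± 52.3 FPKM at M6 (adjusted p = 0.522, limma).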

How the data were processed

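Each hypothalamus gave 1 rRNA-depleted strand-specific library. The authors trimmed the reads, aligned them with HISAT2 2.0.5 to goat ARS1, assembled transcripts with StringTie 1.3.3b and deposited FPKM per gene. The steps of low FPKM values were not whole multiples (21.8% of 3364 values within 0.1), so reads were not recovered, the number of reads behind a value is unknown, and replicate spread carries the precision. FPKM summed to between 260199 and 377479 per library.

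Symbols were matched by gene ID for 20610 IDs and not for 461. SSTR4 was not analysed here. Testing covered the 16771 genes that reached 0.1 FPKM in 5 or more libraries. The deposited FPKM values were converted to log2(FPKM + 0.1), which understates changes of low genes, and fitted by stage in limma 3.58.1 (R 4.3.3) with a variance trend and no block. The fit was tested on simulated data. P-values were adjusted over all genes tested (Benjamini-Hochberg), and a call required adjusted p under 0.05 together with a change of 1 or more on the log2 scale. Permutation tests were two-sided with 100000 resamples, in Python 3.11.15 with numpy 2.4.6, pandas 2.3.3 and scipy 1.17.1, with figures by matplotlib 3.10.9. With 7 genes found there were 6 neighbour pairs, where 7 had been planned.

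The genes and lists were chosen with earlier results of these data known. In each list the genes past the thresholds were named, or otherwise the 2 with the smallest F-test p, along with GHRHR, GHSR, the growth hormone gene and the 3 genes most like each tested gene in rank. Of the genes so chosen, 2 are not reported here. Other genes were named for regions after their values were seen. Alternatives were other pseudocounts, filters, scalings, variance models, the replicate number as a block, fits of the 10 libraries compared, and leaving out libraries. Labels give no batch.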

Additional observations from a re-analysis of the deposited data

Results flagged for a closer look

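Within each stage, the highest and lowest of 5 libraries were compared with their nearest neighbour by Dixon's ratio for each of the 7 genes. Of 28 groups examined, 5 had equal values and could not be judged, and 6 held a library far from the others. The ratios were taken on FPKM and not on the log2 scale of the tests between stages. Chance marks about 1 group in 20 where values are normally distributed. FPKM values have a longer upper tail, so high libraries can be marked more often than that. In 2 of the 6 the other 4 values were 0, where any value above 0 is marked. For GHRH this was D1 replicate 3 at 0.710 FPKM, with the other 4 libraries listed at 0. For SSTR5 it was M2 replicate 4 at 0.00943 FPKM, with the others listed at 0.

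On the FPKM scale, M4 replicate 1 stood apart for 3 genes, with 79.2 FPKM of SST (next 3.68), 7.51 FPKM of SSTR1 (next 2.01) and 21.5 FPKM of SSTR2 (next 3.78). The same library held 68.0 FPKM of SLC17A7 and 0.0296 FPKM of NKX2-1. The part of its markers in these values was not tested. For SST, M6 replicate 4 stood apart on that scale as well, at 123 FPKM with the next at 27.5 FPKM, and it held 413 FPKM of OXT.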

How the results depend on the processing

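No tested gene was called under any setting run, and the lowest adjusted p of any of the 30 differences was 0.286 (SST in M4 vs D1, without M4 replicate 1). Replicate numbers did not pair the libraries (correlation of deviations -0.25 to 0.43 over 30 pairs, and 3 of 20 libraries matched their own number best). With the number as a block, SST in M6 vs M4 kept 2.90 (adjusted p = 0.710, limma), and 0 members were called. Leaving out 1 library moved it between 2.25 and 3.99. Over all settings and all genes, at most 148 were called in M2 vs D1, at most 95 and 65 for M6 and M4 against D1, at most 3 for M4 and 1 for M6 against M2, and at most 170 by the F test, with lows of 0 throughout and 0 in M6 vs M4 always.

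Small differences changed sign, and the cause was not tested. With library quality weights, the log2 fold change was 0.57 for SST and 0.083 for GHR in M2 vs D1, -0.0068 for SSTR2 in M4 vs M2, -0.095 for SSTR1 and -0.054 for SSTR2 in M4 vs D1, and 0.049 for SSTR3 and 0.033 for GHR in M6 vs D1. Without M2 replicate 3 and M6 replicate 3 together, it was 0.072 for SST in M2 vs D1, 0.069 for SSTR2, 0.45 for SSTR3 and 0.000680 for GHR in M6 vs D1, and 0.29 for SSTR2 and 0.051 for GHR in M6 vs M2. Median-ratio scaling gave 0.037 for GHR in M2 vs D1, quantile normalization 0.022 for SSTR2 in M6 vs M2, and a pseudocount of 1 gave 0.00029 for SSTR3 in M6 vs D1. Chosen after the data were seen, leaving out the 4 libraries named for SLC17A7 or DRD1 gave 0.14 for GHR in M2 vs D1, and -0.31 for SSTR1 and -0.14 for SSTR2 in M4 vs D1. Keeping only libraries with at least 0.1 FPKM of NKX2-1 gave -0.57 for SSTR1 and -0.90 for SSTR2 in M4 vs D1, and -0.34 in M4 vs M2 and 0.031 in M6 vs M4 for SSTR2. At M4 that fit kept only replicates 4 and 5, and at D1 only replicates 1, 3 and 4.

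Leaving out each library in turn gave, for GHR, -0.25 to 0.19 in M2 vs D1, -0.39 to 0.048 in M6 vs D1 and -0.32 to 0.031 in M6 vs M2, and for SST -0.87 to 0.17 in M2 vs D1. SSTR1 ranged from -0.37 to 0.65 in M4 vs D1 and -0.20 to 0.65 in M6 vs M2. SSTR2 ranged from -0.45 to 0.51 in M4 vs D1, -0.12 to 0.83 in M4 vs M2, -0.90 to 0.069 in M6 vs D1 and -0.57 to 0.40 in M6 vs M2. SSTR3 ranged from -0.81 to 0.13 in M4 vs D1, -0.45 to 0.45 in M6 vs D1 and -0.27 to 0.84 in M6 vs M4.

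In the order of levels, leaving out 1 library gave log2 differences of 0.45 to 0.73 for GHR over SSTR2 and -0.10 (without D1 replicate 3) to 0.077 for GHRH over SSTR5, an order that 1 library kept. Centring on stage means raised r past the threshold for SST with SSTR1 (0.67), SSTR2 (0.67) and SSTR3 (0.59), SSTR1 with SSTR3 (0.72) and GHR (0.57), and SSTR2 with SSTR3 (0.64) and GHR (0.60). By Spearman's rho, SST with SSTR2 or SSTR3 and SSTR2 with SSTR3 did not pass after centring. SSTR1 with SSTR2 fell to 0.61 without M2 replicate 3 and M6 replicate 3 and to 0.53 without M4 replicate 1. In the relations added after the data were seen, median-ratio scaling took SSTR1 with oligodendrocyte genes past the threshold (-0.57), and without M4 replicate 1 r was -0.061 for SST with neuronal genes, 0.16 for SSTR2 with hypothalamus genes and -0.54 for SSTR2 with oligodendrocyte genes.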

Other observations

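In the tissue and cell type lists, 0 genes passed in any comparison between stages (limma). Among the genes with the smallest unadjusted F-test p of each list over the 4 stages were OXT (0.0213) and POMC (0.0279) for the hypothalamus, CGA (0.00304) for the pituitary, and ADORA2A (0.340) for cortex, striatum and thalamus. They were STMN2 (0.0849) and SNAP25 (0.129) for neurons, CLDN11 (0.187) and CNP (0.211) for oligodendrocytes, and ALDH1L1 (0.289) and FOXJ1 (0.321) for astrocytes and ependyma. For microglia they were C1QA (0.0321) and AIF1 (0.221), and for endothelium and choroid plexus CLDN5 (0.0458) and TTR (0.188).

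TH, the first enzyme of dopamine synthesis and a gene of some arcuate GHRH neurons, was between 16.8 and 56.3 FPKM in 7 libraries (D1 replicates 2 and 5, M2 replicates 2 and 3, M4 replicates 4 and 5, and M6 replicate 5) and at most 1.12 FPKM in the other 13. GHRH was listed at 0 in all 7, where AGRP was at most 0.0603 FPKM and NKX2-1 at most 0.581 FPKM. Which neurons this TH came from was not tested. PCSK1, which cuts the precursors of both ligands, was highest in M4 replicate 1 (32.7 FPKM) and M6 replicate 4 (19.9 FPKM), the 2 libraries with the most SST. Other genes of the prohormone list differed from it. PCSK2 was highest in M4 replicate 2 (20.9 FPKM), the library with the least SST, and next in M4 replicate 1 (19.1 FPKM). PCSK6 was lowest in M4 replicate 1 (0.741 FPKM). The relation of these genes to SST was not tested.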
